A study of Mus musculus with 10 samples.

Results

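The genes described here are 10 genes of the MHC class I presentation pathway of the mouse: the class I heavy chains H2-K1 and H2-D1, their light chain B2m, the peptide transporter genes Tap1 and Tap2, the loading factor Tapbp, the immunoproteasome subunits Psmb8, Psmb9 and Psmb10, and the transactivator Nlrc5. They were taken by name from the 38887 genes of the deposited table, by matching Ensembl identifiers to GENCODE M21 symbols. All 10 were found and all 10 passed the filter on low counts. RNA was sequenced from bone marrow hematopoietic progenitor cells of mice that carried Lewis lung carcinoma, a transplantable mouse tumour, so every library came from a tumour-bearing animal. One group of 5 libraries came from mice given vehicle, which the sample titles call untreated. The other group of 5, called CK2i below, came from mice dosed over 2 weeks with BMS-595 at 60 mg/kg; the compound inhibits CK2, a serine/threonine kinase. The sources used here do not give the inbred background, age or sex of the mice, the marker or gate used to isolate the progenitors, or any pooling of animals. No label ties the numbered libraries to separate mice, so the p-values describe how these samples spread, and that spread may be technical. The comparison asks whether transcripts of class I presentation differed between progenitors of treated and of vehicle mice.

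Class I molecules display short peptides from a cell's own proteins to CD8 T cells. The proteasome cuts proteins into peptides, TAP pumps these into the endoplasmic reticulum, tapasin holds empty class I molecules at the pump, and the heavy chain with beta-2-microglobulin carries the peptide to the cell surface. Interferons, above all interferon gamma, replace the standard catalytic subunits of the proteasome with PSMB8, PSMB9 and PSMB10, and NLRC5 drives class I promoters through a set of elements known as the S, X and Y boxes. Nearly all nucleated cells, hematopoietic progenitors included, express the pathway.

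The promoters of the class I chains are shown first because they carry this shared arrangement. RefSeq promoter windows of 300 bases, 250 before and 50 after the annotated start (GRCm38.p6), were at hand for 8 of the 10 genes. In the windows of H2-K1, H2-D1 and B2m, TGACG, the CRE core of the X region, is followed by a match of CCAAT, the core of the Y box, which begins 25 bases after TGACG begins. Both were searched on both strands, so CCAAT can read ATTGG, and capitals mark every match of either.
H2-K1, chr17:34000284-34000583, minus strand: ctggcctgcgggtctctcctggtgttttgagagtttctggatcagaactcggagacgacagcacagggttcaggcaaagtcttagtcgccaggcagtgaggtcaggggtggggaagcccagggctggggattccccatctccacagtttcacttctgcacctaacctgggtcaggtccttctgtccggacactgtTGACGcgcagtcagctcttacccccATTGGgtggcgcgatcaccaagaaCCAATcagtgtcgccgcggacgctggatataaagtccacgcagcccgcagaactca
H2-D1, chr17:35262844-35263143, plus strand: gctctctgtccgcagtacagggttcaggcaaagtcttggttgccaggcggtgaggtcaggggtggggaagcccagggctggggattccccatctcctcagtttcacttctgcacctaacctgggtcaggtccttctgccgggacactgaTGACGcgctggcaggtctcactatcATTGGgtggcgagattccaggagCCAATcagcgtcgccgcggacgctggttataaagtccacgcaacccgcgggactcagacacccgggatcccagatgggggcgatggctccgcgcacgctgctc
B2m, chr2:122147437-122147736, plus strand: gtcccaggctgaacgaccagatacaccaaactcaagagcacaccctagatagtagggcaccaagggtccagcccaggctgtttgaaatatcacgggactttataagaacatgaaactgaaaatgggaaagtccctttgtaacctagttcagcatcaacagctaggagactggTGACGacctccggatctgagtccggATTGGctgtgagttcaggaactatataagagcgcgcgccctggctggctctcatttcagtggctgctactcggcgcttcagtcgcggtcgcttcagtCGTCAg
Tap1, chr17:34187306-34187605, plus strand: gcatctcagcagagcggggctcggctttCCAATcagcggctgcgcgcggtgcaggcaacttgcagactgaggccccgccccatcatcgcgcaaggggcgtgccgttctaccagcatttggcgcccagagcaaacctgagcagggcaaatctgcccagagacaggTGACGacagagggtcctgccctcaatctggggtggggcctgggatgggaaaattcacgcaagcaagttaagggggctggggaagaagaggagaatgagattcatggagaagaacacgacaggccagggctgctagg
The fourth window is that of Tap1, which is shown because the start of Psmb9 lies in it on the other strand. The annotated starts of Tap1 and Psmb9 are 226 bases apart, and their windows share 275 bases.

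Of all 32851 promoter windows in the RefSeq table, 20.8% held TGACG, 37.4% held CCAAT and 7.73% held both. Of the 8 genes with a window, 5 held both: H2-K1, H2-D1, B2m, Tap1 and Psmb9. The spacing of 25 bases, looked for after it was seen in H2-K1, was present in 36 windows (0.11%), among them those of 3 of the 8 genes. The core of the interferon-stimulated response element, GAAA and GAAA with any 2 bases between them, searched on both strands as was the next motif, was in 3.44% of all windows and in that of B2m alone of the 8. The NF-kB form GGGNNTTCC was in 5.82% of windows and in those of H2-K1 and H2-D1. Only exact matches were counted, so a window without a match may still hold a looser form of an element, which was not searched. Such matches describe letters in these windows and show no binding.

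Levels of different genes are compared as FPKM, the authors' values per transcript length and depth. B2m had the highest level, 925 ± 40.8 FPKM (SD, n = 5), above H2-K1 at 432 ± 18.9 and H2-D1 at 375 ± 14.1 FPKM. Of all tested genes, 1.10% had a higher mean FPKM in vehicle libraries than B2m. Psmb8 followed at 131 ± 17 FPKM and Tapbp at 69.4 ± 4.72 FPKM. Tap1, Psmb10, Tap2 and Psmb9 came next at 58.1 ± 3.68, 50.6 ± 3.43, 45.9 ± 5.52 and 40.1 ± 2.97 FPKM, and in this order the libraries of each gene overlapped those of the next. Nlrc5 had the lowest level, 12.9 ± 1.05 FPKM. All other neighbours in the order were apart in all 5 vehicle libraries. In CK2i libraries the order was the same but for Psmb9 at 61.8 ± 24.8 and Tap2 at 51.1 ± 6.81 FPKM, which changed places and overlapped.

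In CK2i libraries all 10 genes had higher means than in vehicle libraries, by 1.12 to 1.55 times in CPM, as 49.8% of all genes had a log2 difference above 0. None passed the test: 0 of 10 had an adjusted p under 0.05 in edgeR's quasi-likelihood fit over all 14346 tested genes, where 13.2% of genes passed and 6.43% passed upward. At an unadjusted p under 0.05, 8 of the 10, all but B2m and Tap2, were higher, where 17.9% of all genes were higher and 34.6% differed in either direction. DESeq2 on the same genes called 5 of the 10 higher, H2-K1, Tapbp, Psmb8, Psmb9 and Psmb10, where it called 12% of all genes higher and 22.1% in either direction. limma on log2(FPKM + 1) called 0, where it called 4.22% of all genes higher and 8.34% in either direction. The median log2 difference of the 10 was 0.43, against -0.00062 over all tested genes. A single library, CK2i 5, held the highest value of all 10 libraries for each of the 10 genes, as it did for 13.7% of all tested genes. CK2i 5 exceeded the mean of the other 4 CK2i libraries by 1.29 to 2.24 times (median 1.83), while those 4 libraries exceeded the vehicle mean by 1.06 to 1.24 times (median 1.16). Without CK2i 5 the median of the 10 was 0.22 and 1 gene, Tapbp, passed upward, where 1.33% of all genes did and 3.09% passed in either direction. With CK2i 1, 3 and 4 as the treated group 0 of the 10 passed, where 1.2% of all genes passed and 0.501% passed upward. In RNA from a mixed population, more cells that express a gene and more RNA per cell cannot be told apart.

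**Figure D1:**
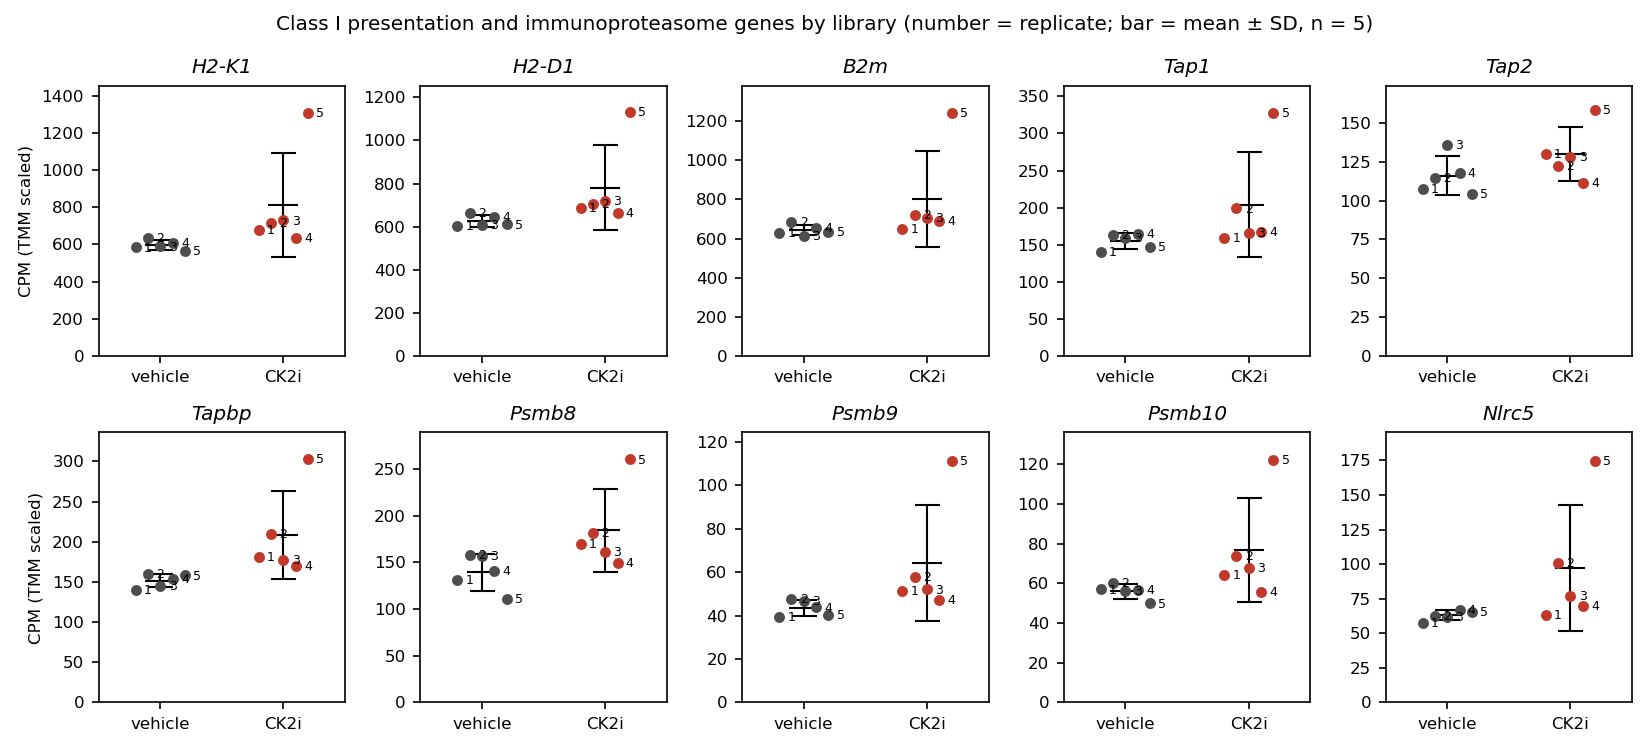
Level of each of the 10 genes in every library, in CPM with TMM scaling (vertical axis, from 0), for vehicle (grey) and CK2i (red). Numbers are replicate numbers and bars are means ± SD of 5 libraries. CK2i 5 is the highest point in each panel, and the other CK2i libraries lie near or above the vehicle libraries.

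The values per library below are CPM, counts scaled to library size with TMM factors, and log2 differences are CK2i minus vehicle with their standard error. H2-K1 encodes the K heavy chain (ENSMUSG00000061232; GRCm38 chromosome 17, 33996017 to 34000347, minus strand). It was at 584, 634, 589, 607 and 565 CPM in vehicle libraries 1 to 5, and at 680, 715, 729, 633 and 1306 CPM in CK2i libraries 1 to 5. CK2i 1, 2, 3 and 5 lay above all vehicle libraries, and CK2i 4 lay just below the highest of them. The log2 difference was 0.45 ± 0.17 (edgeR adjusted p = 0.0959), and without CK2i 5 it was 0.21 ± 0.05 (adjusted p = 0.0548), so that both the size and the error fell. H2-D1, the D heavy chain, gave the same order of the CK2i libraries with smaller steps. Its libraries were at 602, 663, 609, 644 and 610 CPM in vehicle and at 685, 706, 718, 662 and 1132 CPM in CK2i (log2 0.32 ± 0.13, edgeR adjusted p = 0.115), and the difference was 0.15 without CK2i 5. The light chain B2m (chromosome 2, 122147686 to 122153083) was at 627, 684, 614, 654 and 635 CPM in vehicle and at 651, 719, 706, 692 and 1243 CPM in CK2i. For B2m, 4 CK2i libraries lay above all vehicle libraries, but apart from CK2i 5 they did so by little, and the log2 difference was 0.32 ± 0.16 (edgeR adjusted p = 0.172, 95% interval -0.026 to 0.66), or 0.11 without CK2i 5.

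Reads of class I heavy chains can fit several genes. Of the 75-base windows of the longest coding transcript of H2-K1, 1.55% also occurred in another gene, chiefly H2-D1, and of those of H2-D1 6.90% did, chiefly in H2-Q1. For B2m, Tap1, Tap2, Psmb8, Psmb9, Psmb10 and Nlrc5 the share was 0. The mm10 reference was used, per the submitters' processing notes, and class I alleles differ between inbred strains.

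The peptide transporter and its partner differed among themselves. Tap1 and Tap2 encode the partner chains of the TAP pump. Tap1 was at 140, 163, 159, 165 and 147 CPM in vehicle and at 159, 199, 166, 167 and 327 CPM in CK2i (log2 0.40 ± 0.18, edgeR adjusted p = 0.143). Tap2 was at 107, 115, 136, 118 and 104 CPM in vehicle and at 130, 122, 128, 112 and 158 CPM in CK2i. The groups of Tap2 overlapped in 4 of the 5 CK2i libraries, and its log2 difference, 0.16 ± 0.10 (edgeR adjusted p = 0.240), was the smallest of the 10. Without CK2i 5 the differences were 0.16 for Tap1 and 0.085 for Tap2. Tapbp encodes tapasin, which bridges TAP and the empty class I molecule. It was at 140, 160, 146, 153 and 158 CPM in vehicle and at 181, 209, 178, 170 and 303 CPM in CK2i. Of the 10, only Tapbp had groups that did not overlap; over all tested genes, 5.18% had all CK2i libraries above the vehicle group and 5.76% had all below. Its log2 difference of 0.46 ± 0.14, or 0.28 without CK2i 5, missed the threshold with all libraries (edgeR adjusted p = 0.0533, 95% interval 0.15 to 0.77). It passed without CK2i 3, without CK2i 4 or without CK2i 5 (adjusted p = 0.0340, 0.0423 and 0.0474), where 11.9%, 6.03% and 1.33% of all genes passed upward and 22.1%, 12% and 3.09% passed in either direction. With library size as the only scaling it passed too (adjusted p = 0.0488; 7.22% of genes upward, 12.9% in either direction), and with the replicate number as a block none of the 10 did, where 3.19% of genes passed upward and 7.94% in either direction. Over all alternatives the adjusted p of Tapbp ran from 0.0118 to 0.116.

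Among the immunoproteasome subunits, Psmb9 had the largest difference. Psmb8, which takes the place of the standard subunit Psmb5, was at 131, 158, 157, 141 and 110 CPM in vehicle and at 170, 181, 161, 149 and 260 CPM in CK2i (log2 0.40 ± 0.15, edgeR adjusted p = 0.0865). Psmb9, the counterpart of Psmb6 (chromosome 17, 34181987 to 34187764, minus strand), was at 39.5, 47.6, 46.7, 43.8 and 40.5 CPM in vehicle and at 51.5, 57.9, 52.0, 47.4 and 111 CPM in CK2i (log2 0.55 ± 0.21, edgeR adjusted p = 0.0933). Psmb10, the counterpart of Psmb7 (chromosome 8), was at 57.0, 60.3, 56.3, 56.5 and 49.9 CPM in vehicle and at 64.0, 73.8, 67.6, 55.8 and 122 CPM in CK2i (log2 0.45 ± 0.18, edgeR adjusted p = 0.101). For each of the 3 genes CK2i 4 lay within the vehicle range and the other 4 CK2i libraries lay above it. Without CK2i 5 the differences were 0.25 for Psmb8, 0.26 for Psmb9 and 0.22 for Psmb10. In GENCODE the spans of Tap1 (from 34187553, plus strand) and Psmb9 (to 34187764, minus strand) overlap at their starts. The RefSeq starts used for the promoter windows lie 226 bases apart and do not overlap. Without strand in the counting, which no source states, reads in the GENCODE overlap fit either gene.

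Nlrc5 (ENSMUSG00000074151; chromosome 8, 94434356 to 94527272) had the lowest level of the 10 in FPKM, though not in CPM, and the largest log2 difference. It was at 57.5, 62.7, 62.1, 67.0 and 65.2 CPM in vehicle and at 63.4, 101, 77.0, 70.0 and 175 CPM in CK2i. CK2i 1 lay within the vehicle range, and CK2i 2 and CK2i 5 stood above the rest. The log2 difference was 0.63 ± 0.24 (edgeR adjusted p = 0.0924), and 0.31 ± 0.12 without CK2i 5 (adjusted p = 0.130).

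**Figure D2:**
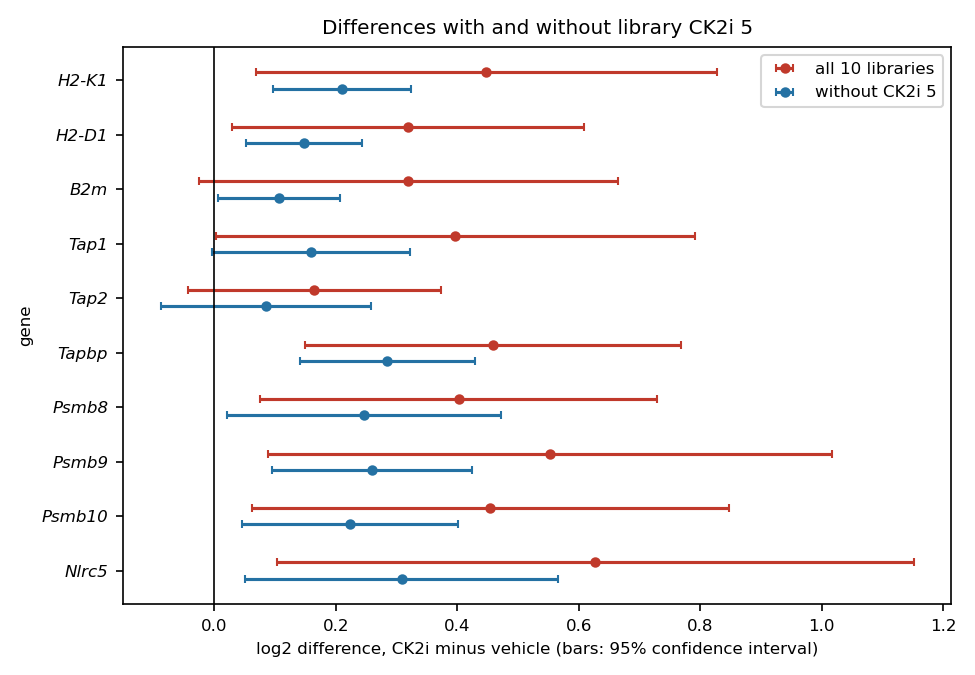
Log2 difference of each gene, CK2i minus vehicle (horizontal axis), from edgeR with all 10 libraries (red) and without CK2i 5 (blue). Bars are 95% confidence intervals. All points lie above 0, and without CK2i 5 the points and the intervals are smaller, with H2-K1 at 0.21 in place of 0.45.

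Of the 14 genes of the standard 20S core, 0 passed in edgeR in either direction (13.2% of all genes did), and their median log2 difference was -0.0059. Of 18 genes of the 19S cap, which unfolds and feeds ubiquitinated proteins, 0 passed and the median was 0.03. DESeq2 also called 0 in both lists; at an unadjusted p under 0.05 the counts were 0 of 14 and 2 of 18, Psmc2 and Psmd8, where 34.6% of all genes were under it. The standard catalytic subunit Psmb5 ran from 80.3 to 90.2 CPM in vehicle libraries and from 81.4 to 87.0 CPM in CK2i libraries. Psmb6 ran from 130 to 142 CPM and from 119 to 134 CPM, and Psmb7 from 144 to 162 CPM and from 140 to 158 CPM. In CK2i 5, where the 10 genes were highest, these 3 genes were at 83.8, 125 and 149 CPM, within the range of the other CK2i libraries. Of the 75-base windows of Psmb5, 40% also occurred in another gene model, so its level is less certain than those of Psmb6 and Psmb7, which shared none.

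Ratios of each immunoproteasome subunit to its standard counterpart put these values on 1 scale. The FPKM ratio of Psmb9 to Psmb6 was 0.161, 0.184, 0.197, 0.192 and 0.169 in vehicle libraries and 0.233, 0.297, 0.219, 0.222 and 0.520 in CK2i libraries. The groups did not overlap, and the ratio rose by 0.64 on the log2 scale (exact permutation test over all splits, two-sided, p = 0.00794, the smallest it can give; adjusted over 5 ratios p = 0.0397). Without CK2i 5 the ratio was higher by 0.42, again with no overlap (exact permutation p = 0.00794, adjusted p = 0.0397). With a vehicle library left out the adjusted p lay above 0.05 in all 5 cases, from 0.0595 to 0.119, and it was 0.0893 at a difference of 0.32 when CK2i 2 and CK2i 5 were both left out. The ratio of Psmb8 to Psmb5 was 0.961, 1.19, 1.29, 1.16 and 0.904 in vehicle and 1.33, 1.53, 1.31, 1.17 and 2.09 in CK2i (exact permutation p = 0.0318, adjusted p = 0.0661). The ratio of Psmb10 to Psmb7 was 0.334, 0.335, 0.350, 0.332 and 0.289 in vehicle and 0.390, 0.475, 0.416, 0.318 and 0.734 in CK2i (exact permutation p = 0.0397, adjusted p = 0.0661). In both of these ratios CK2i 4 lay among the vehicle libraries. On CPM in place of FPKM both passed, each at an adjusted exact permutation p of 0.0496.

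Within the class I complex the ratios differed between the groups by less than the immunoproteasome ratios did, by 0.091 log2 for H2-K1 to H2-D1. For H2-K1 to H2-D1, CK2i 1, 2, 3 and 5 lay above all vehicle libraries, and CK2i 4 lay within them. The FPKM ratio of H2-K1 to H2-D1 was 1.15 ± 0.027 in vehicle and 1.23 ± 0.091 in CK2i (SD, n = 5 per group; exact permutation p = 0.0794, adjusted p = 0.0794), with 1.38 in CK2i 5. The ratio of B2m to the sum of both heavy chains was 1.15 ± 0.019 in vehicle and 1.09 ± 0.048 in CK2i (exact permutation p = 0.0635, adjusted p = 0.0794). It was 1.11 in CK2i 5, so that light and heavy chains were high together in that library. CK2i 1, 2, 3 and 5 lay below all vehicle libraries for this ratio, and CK2i 4 within them. Without CK2i 4 all 5 ratios passed, at an adjusted exact permutation p of 0.00992 or 0.0159.

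**Figure D3:**
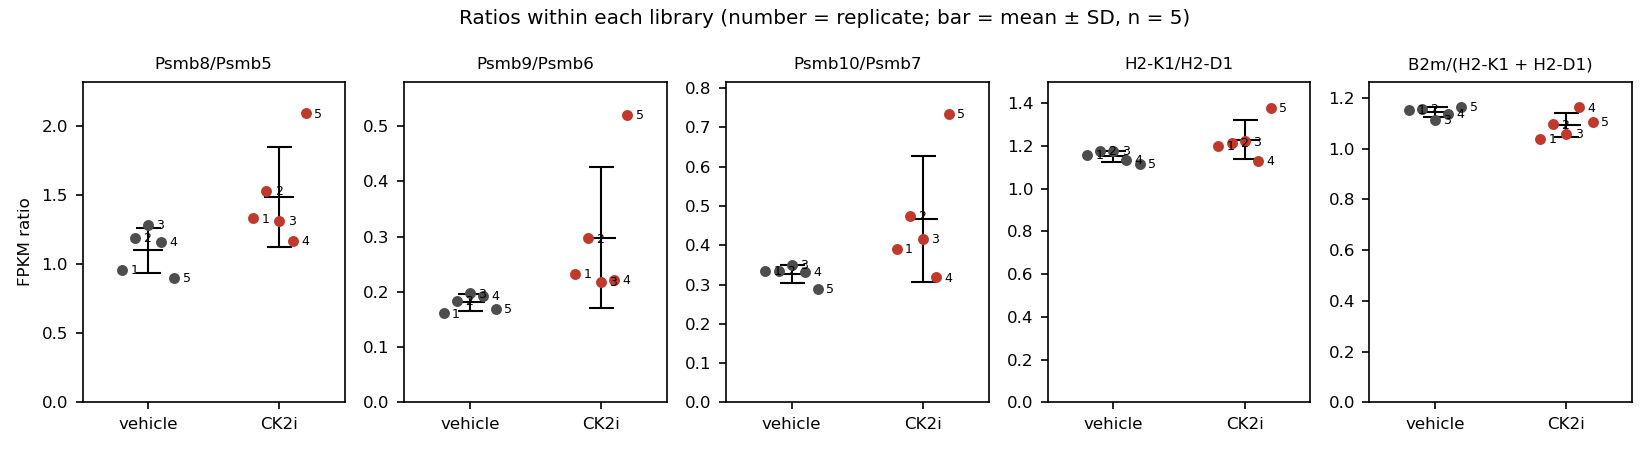
FPKM ratios within each library (vertical axis, from 0) of the 3 immunoproteasome subunits to their standard counterparts, of H2-K1 to H2-D1 and of B2m to the sum of both. Numbers are replicate numbers and bars are means ± SD of 5 libraries. The groups do not overlap for Psmb9/Psmb6, where vehicle libraries reach 0.197 and CK2i libraries start at 0.219.

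The genes whose profile over the 10 libraries lay nearest to the mean profile of the 10 genes were, for 4 of the nearest 6, other genes of class I presentation. Nearness was the root mean square difference of log2 CPM minus the vehicle mean, over 10 libraries that share their scaling, and all tested genes were searched. The 6 nearest were Erap1 (0.085), Tapbpl (0.094), Sp140 (0.096), Gsdmd (0.097), Psme1 (0.10) and Psme2 (0.11). For the 10 genes themselves, which make up that mean, the value ran from 0.053 for H2-K1 to 0.22 for Tap2, with Nlrc5 at 0.19. ERAP1 trims peptides in the endoplasmic reticulum, TAPBPL is a tapasin relative that edits peptides, and PSME1 and PSME2 form the PA28 cap of the proteasome. Sp140 encodes a nuclear body protein and Gsdmd the pore former gasdermin D. Erap1 was at 130 to 149 CPM in vehicle libraries, 150 to 177 in CK2i 1 to 4 and 254 in CK2i 5. Psme1 was at 137 to 150, 146 to 172 and 246 CPM in the same sets, and Psme2 at 91.8 to 108, 106 to 115 and 164 CPM. Gsdmd rose by 0.44 ± 0.12 log2 (edgeR adjusted p = 0.0424). Sp140 and the 4 class I genes did not pass in edgeR (adjusted p = 0.0942 for Sp140, 0.112 for Erap1, 0.0987 for Tapbpl, 0.118 for Psme1 and 0.0792 for Psme2).

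**Figure D4:**
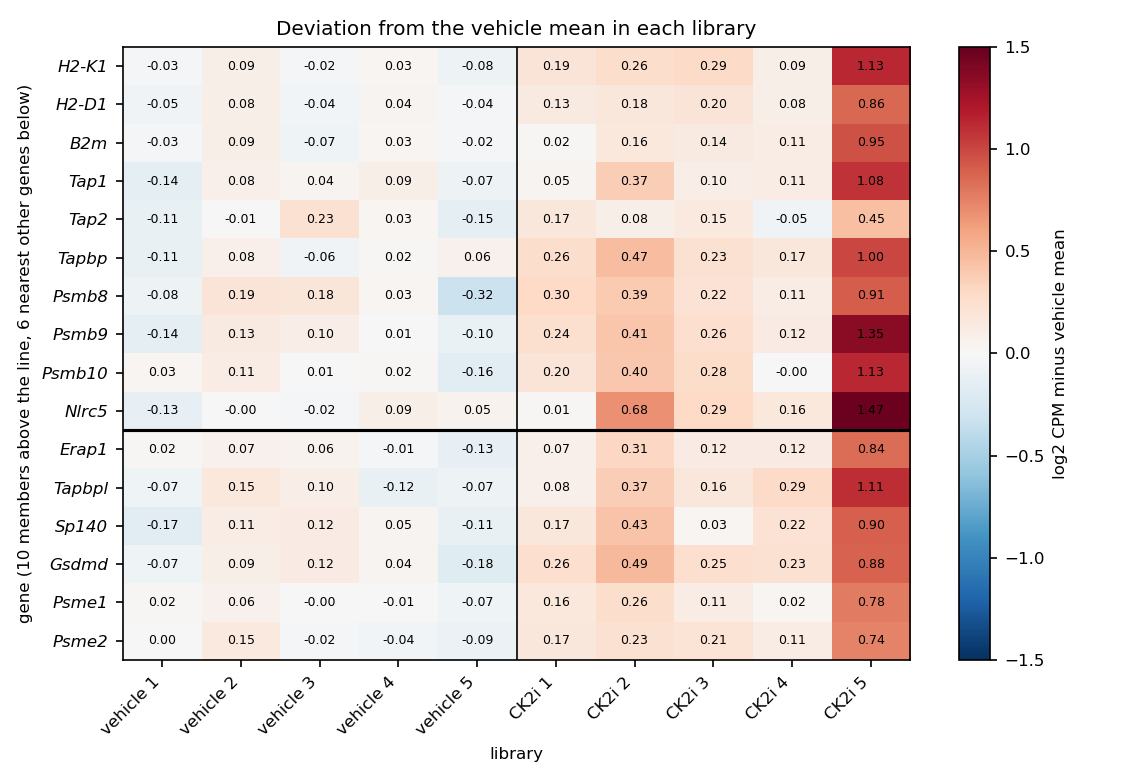
Log2 CPM minus the vehicle mean (colour and printed value) for the 10 genes, above the line, and the 6 genes with the nearest profiles, below it, in each library (columns). In CK2i 5 the 10 genes lie between 0.45 (Tap2) and 1.47 (Nlrc5), and Erap1, Tapbpl, Psme1 and Psme2 lie between 0.74 and 1.11.

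The rest of the pathway was read from lists of other genes. Of all tested genes, 34.6% had an unadjusted p under 0.05, and 17.9% had one and were higher. DESeq2 called 12% of all genes higher and 22.1% in either direction. Of 13 tested nonclassical and class I-like genes, 0 passed in edgeR (5 at an unadjusted p under 0.05, 4 of them higher; DESeq2 called 1 higher and 1 lower), and 10 had differences above 0 (median 0.49, and 0.14 without CK2i 5). H2-Q6 and H2-Q7, which encode Qa-2 chains and were singled out after their values were seen, were at 54.5 to 63.5 and 76.1 to 95.3 CPM in vehicle and at 236 and 317 CPM in CK2i 5. These are close copies, with 17.9% and 21.7% of their 75-base windows shared with other genes. Of 7 other genes of peptide loading, 2 rose and none fell, where 6.43% and 6.76% of all genes did. DESeq2 called 4 of the 7 higher, and 5 had an unadjusted p under 0.05, all higher. Calr, the chaperone calreticulin, rose by 0.19 ± 0.05 log2 (edgeR adjusted p = 0.0421) and Uggt1, which checks glycoprotein folding, by 0.27 ± 0.06 (edgeR adjusted p = 0.0258). Both missed the threshold without CK2i 5 (0.101 and 0.0570). Of 9 genes for proteasome activators and assembly, 1 fell, the assembly chaperone Psmg2, by 0.20 ± 0.06 (edgeR adjusted p = 0.0449, and 0.105 without CK2i 5). DESeq2 called 2 of the 9 higher and 1 lower. Over all lists, 6 of the 121 tested genes rose and 5 fell, shares near or below the 6.43% and 6.76% of all genes. Without CK2i 5 the counts were 1 and 2, where 1.33% of all genes passed upward and 3.09% passed in either direction.

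Of 18 tested regulators of class I promoters and interferon signalling, 1 rose and 2 fell, where 6.43% and 6.76% of all genes did. Rela, an NF-kB subunit, fell by 0.23 ± 0.04 log2 (edgeR adjusted p = 0.0138), from 61.9 to 67.1 CPM in vehicle to 51.1 to 56.0 CPM in CK2i with no overlap, and also passed without CK2i 5 (adjusted p = 0.0363). Of the NF-Y subunits, which bind the CCAAT box, Nfya rose by 0.26 ± 0.07 (edgeR adjusted p = 0.0436) and Nfyb fell by 0.16 ± 0.05 (edgeR adjusted p = 0.0492), and neither passed without CK2i 5 (0.102 and 0.118). Rfx5, which binds the X box, averaged 27.0 ± 1.58 CPM in vehicle against 26.1 ± 1.54 CPM in CK2i (SD, edgeR adjusted p = 0.571). Irf1, a factor induced by interferon gamma that acts on class I promoters, ran from 24 to 34.0 CPM in vehicle and was at 30.9, 43.5, 37.6, 33.6 and 88.2 CPM in CK2i (log2 0.66 ± 0.26, edgeR adjusted p = 0.106). It was highest in CK2i 5, as were the 10 genes.

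Of 7 interferon receptor chains and their kinases, 1 rose and 2 fell, where 6.43% and 6.76% of all genes did. Ifnar1, a chain of the type I interferon receptor, rose by 0.26 ± 0.05 (edgeR adjusted p = 0.0180), while the kinases Jak1 and Jak2 fell by 0.14 ± 0.04 and 0.32 ± 0.06 (edgeR adjusted p = 0.0407 and 0.0181). Ifnar1 and Jak2 also passed without CK2i 5 (both 0.0407), and Jak1 did not (0.0939). Transcripts of the interferons themselves were at or near 0. Ifng had 3 to 10 counts in vehicle libraries and 2 to 3 in CK2i libraries, with 2 in CK2i 5. The other 9 interferon genes looked at had at most 1 count in any library, and 0 in CK2i 5.

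Genes best known as targets of interferon showed which libraries stood apart. Of all tested genes, 13.2% passed in edgeR, 17.9% were higher at an unadjusted p under 0.05, and DESeq2 called 12% higher. Of 13 tested genes best known for interferon gamma, Irf1 among them, 0 passed in edgeR (6 at an unadjusted p under 0.05, all higher; DESeq2 called 1 higher), and their mean deviation from the vehicle mean was 1.73 log2 in CK2i 5, against 0.40 in CK2i 2. The 3 remaining CK2i libraries held -0.026 to 0.16, and the vehicle range was -0.15 to 0.17. The immunity GTPase gene Tgtp1, chosen after its values were seen, was at 6.93 to 12.6 CPM in vehicle, 7.34 to 16.2 CPM in CK2i 1 to 4 and 116 CPM in CK2i 5. Of 18 genes best known for type I interferon, 2 rose and none fell, where 6.43% and 6.76% of all genes did: Oasl2 by 1.31 ± 0.36 log2 (edgeR adjusted p = 0.0390) and Oas1a by 0.45 ± 0.12 (edgeR adjusted p = 0.0401), and neither passed without CK2i 5 (0.0717 and 0.0940). DESeq2 called 7 of the 18 higher, where it called 12% of all genes higher, the fit with the replicate number as a block 7, where it called 3.19%, and 8 had an unadjusted p under 0.05, all higher. Their list deviated by 0.89 in CK2i 5 and by 0.83 in CK2i 2, against -0.027 to 0.18 in the other CK2i libraries and -0.27 to 0.38 in vehicle libraries, so that vehicle 5, at 0.38, lay above CK2i 1, 3 and 4. The 10 class I genes deviated on average by 1.03 in CK2i 5 and by 0.34 in CK2i 2. In CK2i 1, 3 and 4 the mean was 0.16, 0.22 and 0.090, and the vehicle range was -0.083 to 0.084. CK2i 2 and CK2i 5 were thus close for the type I list and apart for the class I genes, a comparison of 1 library with 1 library that has no test.

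**Figure D5:**
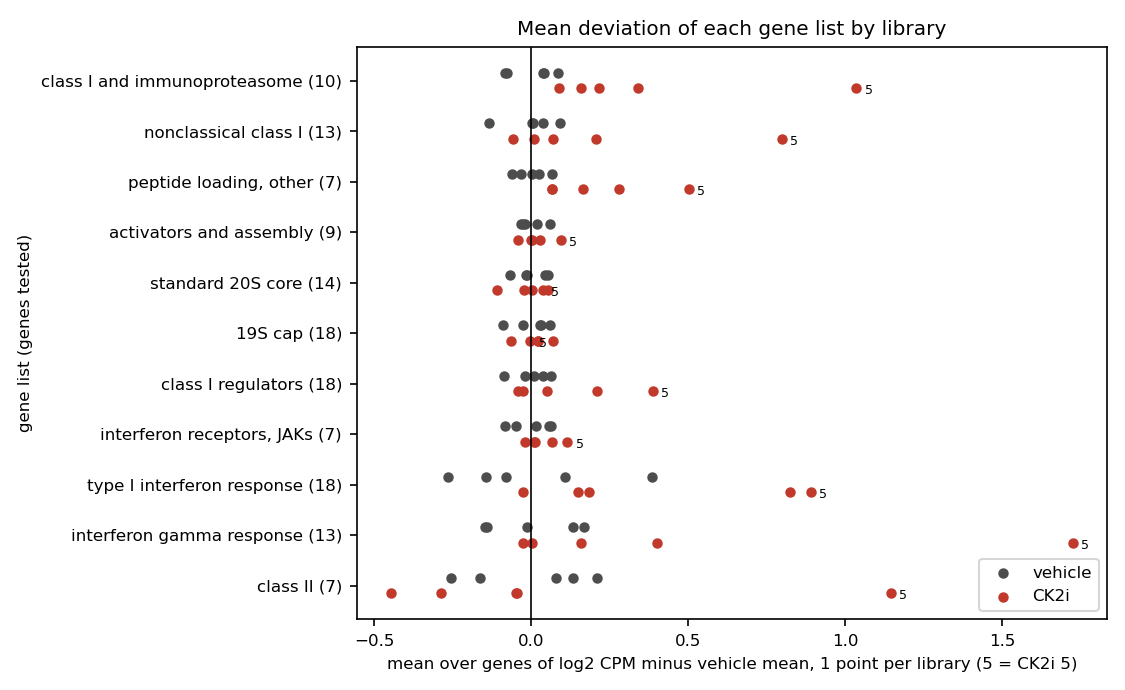
Mean over the tested genes of each list of log2 CPM minus the vehicle mean (horizontal axis), 1 point per library, vehicle grey and CK2i red, with CK2i 5 marked. The number of tested genes stands in brackets. CK2i 5 is apart for the class I genes (1.03) and the interferon gamma list (1.73). It is also apart for the class II list (1.145) and the nonclassical class I list (0.80). It lies with the other libraries for the standard 20S core (0.036) and the 19S cap (-0.0034).

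Depth was 37569160 to 43636152 counts per library in vehicle and 34127674 to 40811539 in CK2i, with CK2i 5 the shallowest, and the 10 genes had at least 1571 counts in every library, so counting error was small beside the spread between libraries. On the first principal component, which held 40.8% of the variance, CK2i 2 and CK2i 5 stood apart at 43.3 and 43.7, with all other libraries between -29.6 and 12.5. The progenitor label was checked with 8 markers, all of them present in every library. Kit was at 244 to 282 CPM in vehicle and 205 to 253 CPM in CK2i. Mpo went the other way, at 1810 to 3687 CPM in vehicle and 3408 to 5325 CPM in CK2i. The 8 markers, mostly Mpo, summed to 2904 to 4983 CPM in vehicle and 4584 to 6571 CPM in CK2i. In CK2i 5, 3 of the 8, Flt3, Cd48 and Mpo, were above all vehicle libraries. Kit, Gata2 and Sox4 were below all vehicle libraries there. Markers of other cells differed in CK2i 5 in both directions. All 7 macrophage and monocyte markers were above all vehicle libraries in CK2i 5 and also in CK2i 2, and none was at 0. Their summed level was 877 CPM in CK2i 5 and 719 CPM in CK2i 2, against 257 to 487 CPM in vehicle. In CK2i 1, 3 and 4 it was 389 to 479 CPM. Of 8 T and NK markers 3 were above all vehicle libraries in CK2i 5, while Klrb1c and Ncr1 were below all of them. The 8 summed to 76.7 CPM there and 75.9 CPM in CK2i 2, almost all of it Nkg7. Cd3e was at 0.088 CPM in CK2i 5. Of 6 dendritic markers 2 were above all vehicle libraries in CK2i 5, and Zbtb46 was below all of them. The 6 summed to 164 CPM in CK2i 5 and 124 to 156 CPM in vehicle. Neutrophil markers summed to 64.5 CPM in CK2i 5, 85.2 CPM in CK2i 2 and 9.95 to 41.8 CPM in vehicle. Erythroid markers summed to 518 CPM in CK2i 5, the highest of all libraries. The sum was 356 to 499 CPM in the other CK2i libraries and 256 to 413 CPM in vehicle. In CK2i 5 Hbb-bt, Hba-a1 and Slc4a1 were above all vehicle libraries, and Klf1 was below all of them. B and plasma cell markers were lowest in CK2i 5 at 253 CPM, with 287 to 431 CPM in the other CK2i libraries and 504 to 683 CPM in vehicle. Megakaryocyte markers summed to 1025 CPM in CK2i 5 and 849 CPM in CK2i 2, against 1497 to 2317 CPM in vehicle, and stromal and endothelial markers to 41.8 and 36.9 CPM, against 43.3 to 95.8 CPM. The part of these cells in the levels of the 10 genes was not tested.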

How the data were processed

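Total RNA of bone marrow progenitors was made into stranded libraries and sequenced as paired 75-base reads, per the labels' protocols. The authors deposited RSEM estimated counts, rounded to whole numbers, and FPKM per gene; Bowtie2, RSEM 1.2.31, DESeq2 and mm10 are named in the submitters' processing notes. The sources used here do not name the annotation, strand setting or filters. Of 38887 identifiers, 37570 matched GENCODE M21 (GRCm38, also named mm10); 2 empty lines were left out. edgeR 4.0.16 (R 4.3.3) tested the deposited counts with TMM scaling, group as the only term and filterByExpr (minimum count 10), two-sided, with Benjamini-Hochberg adjustment over 14346 genes and a threshold of 0.05; the script was tested on simulated data. Standard errors are the log2 difference over the square root of F. Ratios of FPKM were tested by exact permutation. No 2 libraries of the same group agreed within sampling noise (chi-square per degree of freedom at least 10.96), and pairs across groups were not compared. Alternatives were other scalings, no filter, DESeq2 1.42.0, limma 3.58.1 on log2(FPKM + 1) and log2(FPKM + 0.1), a replicate block and libraries left out. Named were the 10 members, Psmb5, Psmb6, Psmb7, Psme1, Psme2, Irf1, Rfx5, list genes that passed and the 6 nearest profiles; 1 further gene of the rule and 1 motif searched are not reported here. Members and lists were chosen with earlier results of these data known, so no adjustment over the lists alone and no set test is given.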

Additional observations from a re-analysis of the deposited data

Results flagged for a closer look

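In 76 groups of 5 libraries, those of the 10 genes, 23 other named genes and 5 ratios, a library lay far from the other 4 of its group in 8, by a gap of more than 0.71 of the group's range on the log2 scale; chance flags about 1 in 20. In 6 of the 8 the library was CK2i 5. Over all 14346 tested genes, 0.453% had CK2i 5 highest of the CK2i libraries and beyond this limit. The groups are not independent, since the 6 nearest genes were chosen for profiles like that of the 10. The value of CK2i 5 for H2-K1 was 1306 CPM, where the other CK2i libraries held 633 to 729 CPM. For H2-D1 it was 1132 CPM against 662 to 718, for B2m 1243 CPM against 651 to 719, and for Psmb9 111 CPM against 47.4 to 57.9. For Psme2 it was 164 CPM against 106 to 115, and for Tapbpl 48.4 CPM against 23.6 to 28.9. Vehicle 5 was flagged for Rela, at 67.1 CPM where the other vehicle libraries held 61.9 to 62.8, and for the ratio of Psmb10 to Psmb7, at 0.289 against 0.332 to 0.350.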

How the results depend on the processing

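All 180 log2 differences of the 10 genes under 18 alternatives each stayed above 0, and none of the 5 ratios changed sign. With 1 library left out the difference ran from 0.11 to 0.39 for B2m, 0.15 to 0.37 for H2-D1, 0.21 to 0.53 for H2-K1, 0.31 to 0.75 for Nlrc5, 0.28 to 0.52 for Tapbp, 0.16 to 0.47 for Tap1, 0.085 to 0.23 for Tap2, 0.25 to 0.47 for Psmb8, 0.26 to 0.64 for Psmb9 and 0.22 to 0.55 for Psmb10; each of these lowest values came without CK2i 5. The number of the 10 genes called was 0 with all libraries in edgeR, 1 (Tapbp) with library size as the only scaling, 5 with DESeq2 and 0 to 1 with 1 library left out, where 1 was Tapbp without CK2i 3, 4 or 5. The number of all genes called was 1892, and 3169 with DESeq2, 1197 and 1223 by limma on log2(FPKM + 1) and log2(FPKM + 0.1), 1139 with the replicate block, 446 to 3198 with 1 library left out (458, 758, 528 and 546 without vehicle 1, 3, 4 and 5, and 617, 3198 and 446 without CK2i 2, 3 and 5) and 175 with CK2i 1, 3 and 4 only. Of 121 tested list genes, 6 were called higher and 5 lower, where 6.43% and 6.76% of all genes were. The shares of all genes called higher stand in brackets. Higher calls were 18 with DESeq2 (12%), 3 by limma on log2(FPKM + 1) (4.22%) and 9 with the replicate block (3.19%). With 1 library left out they ran from 1 to 11. They were 11 without CK2i 3 (11.9%) and 3 without vehicle 2 (5.15%). They were 1 without vehicle 1, 3, 4 or 5 (1.26%, 2.44%, 1.64% and 1.7%) or CK2i 2 or 5 (1.84% and 1.33%). With CK2i 1, 3 and 4 only they were 0 (0.501%). Lower calls were 3 with library size only, where 818 of all 14346 genes were called lower. They were 2 without the filter (719 of 22935), 2 by limma with either pseudocount (591 and 593 of 14346) and 2 with the replicate block (682 of 14346). With 1 library left out they ran from 2 to 5. They were 2 without vehicle 1, 3, 4 or 5 (276 of 14472, 406 of 14451, 291 of 14443 and 301 of 14436) or CK2i 5 (254 of 14453). They were 3 without vehicle 2 (856 of 14485) or CK2i 1 or 2 (864 of 14462 and 352 of 14426). With CK2i 1, 3 and 4 only they were 0 (102 of 14583). On CPM the ratios of Psmb8 to Psmb5, Psmb10 to Psmb7 and H2-K1 to H2-D1 passed, at differences of 0.39, 0.45 and 0.10 log2. With 1 library left out the differences ran from 0.28 to 0.49 for Psmb8 to Psmb5, 0.42 to 0.73 for Psmb9 to Psmb6, 0.27 to 0.58 for Psmb10 to Psmb7, 0.049 to 0.12 for H2-K1 to H2-D1 and -0.092 to -0.052 for B2m to both heavy chains. With CK2i 1, 3 and 4 only, the difference of Psmb9 to Psmb6 was 0.32. The smallest p that splits allow was 0.00794 with all libraries and with 1 left out, and 0.0179 with CK2i 1, 3 and 4 only; the cause of these shifts was not tested. No label says whether the replicate numbers pair the libraries. Same-numbered libraries deviated together with correlations over genes of 0.23, 0.11, 0.068, 0.030 and -0.16 for numbers 1 to 5. Of the same-numbered libraries, only those numbered 1 were each other's best match across the groups. Vehicle 2 and CK2i 5 were also each other's best match, as were vehicle 5 and CK2i 3. These values do not settle whether the numbers pair. With the numbers as a replicate block, 0 of the 10 genes passed, and the ratio of Psmb9 to Psmb6 kept its difference of 0.64 with an adjusted exact p of 0.125, where the smallest unadjusted p is 0.0625.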

Other observations

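Class II genes were also highest in CK2i 5 on average, with a mean deviation of 1.145 log2 beside 1.03 for the 10 class I genes. In CK2i 1 to 4 the patterns differed. The mean there was -0.45 to -0.045 for class II and 0.090 to 0.34 for the class I genes. Of 7 tested class II genes 0 passed in edgeR, 0 by DESeq2 and 0 at an unadjusted p under 0.05. Over all tested genes the shares were 13.2%, 22.1% and 34.6%. Without CK2i 5 the median log2 difference of the class II genes was -0.22 in place of 0.19. H2-Aa, a class II alpha chain, was at 3.09 to 4.56 CPM in vehicle libraries, at 1.96, 4.07, 2.97 and 3.12 CPM in CK2i 1 to 4 and at 16.2 CPM in CK2i 5. Cd74, the invariant chain, was at 27.1 to 38.9 CPM in vehicle, at 23.4, 21.2, 41.2 and 17.5 CPM in CK2i 1 to 4 and at 37.3 CPM in CK2i 5, within the vehicle range. Of class I-like genes encoded outside chromosome 17, Cd1d1, which presents lipids, was at 16.3 CPM on average in vehicle and 16.9 CPM in CK2i 5, and Mr1, which presents vitamin metabolites, was at 5.65 and 4.16 CPM. Fcgrt, the neonatal Fc receptor, was at 4.15 to 5.71 CPM in vehicle and highest in CK2i 5 at 6.64 CPM, and Cd1d2 was below 0.4 CPM in every library. None of the 4 passed in edgeR (adjusted p = 0.0630 to 0.783).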
